A study of Mus musculus with 12 samples.

Results

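Ly6a and 7 relatives of the Ly6 gene family were measured in blood-forming and endothelial cells of the major arteries of mouse embryos. The genes are Ly6a, Ly6c1, Ly6c2, Ly6e, Ly6h, Ly6d, Gpihbp1 and Lynx1, taken by symbol from the deposited table, so they are 8 of its 33531 genes. Of the 8, 5 passed the filter on low values, which asked for FPKM 1 or above in 3 or more of 12 libraries, and were tested: Ly6a, Ly6c1, Ly6e, Ly6h and Gpihbp1. Ly6d, Lynx1 and Ly6c2 stayed under it. FPKM is the number of fragments scaled to transcript length and library size, a level per length that can be compared between genes.

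The embryos were at embryonic day 11.5 and came from males carrying the Tg(Ly6a-GFP) transgene and C57BL/6 x 129S1/SVImJ F1 females (background label B6129S). The labels describe the dissected embryos as Ly6a-GFP+, so all 4 populations came from embryos with the transgene, in which sequence of the Ly6a gene drives green fluorescent protein, and reads of the transgene were not separated from those of the endogenous gene here. The dorsal aorta, umbilical and vitelline arteries of 122 embryos were combined. Hematopoietic cluster cells (HC) were sorted as CD31+ CD144+ ESAM+ c-Kit+ and endothelial cells (EC) by the same antigens but c-Kit-. Each was divided by the reporter, which gave HC GFP+ (53000 cells), HC GFP- (413000), EC GFP+ (377000) and EC GFP- (791000), each pooled into 3 samples. Since pools mix embryos, p-values refer to the spread between pools and not between embryos.

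The libraries held 12147 to 12779 genes at FPKM 1 or more, and the values summed to 555675 to 691948 per library. Read depth is unknown, since FPKM does not keep it. Endothelial genes were high throughout: Cdh5, which encodes CD144, averaged 457, 435, 713 and 513 FPKM in HC GFP+, HC GFP-, EC GFP+ and EC GFP-. Kit averaged 35.5, 21.4, 14.0 and 16.3 FPKM in the same order, so transcripts of the gating antigen were also present in EC. Runx1, a master regulator of blood formation, averaged 13.9 FPKM in HC GFP+ and 4.81 FPKM in HC GFP-, against 1.02 and 0.779 FPKM in EC GFP+ and EC GFP-. Macrophage and monocyte genes stood out in HC: the summed FPKM of 12 such genes was 282 to 1584 in HC GFP+ and 263 to 838 in HC GFP-, against 16.1 to 37.2 in EC GFP+ and 13.1 to 19.6 in EC GFP-. The third HC GFP+ library had the highest sum. Erythroid genes summed to 823 to 1140 FPKM in HC GFP+ against 6232 to 9554 in HC GFP-, and to 932 to 2373 FPKM in EC GFP+ against 3289 to 7629 in EC GFP-. The part of these cells in the results that follow was not tested, except where a value is given.

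Ly6 proteins share a compact fold of 3 loops held by disulfide bonds, and most are tethered to the outer face of the membrane by a glycosylphosphatidylinositol (GPI) anchor. Ly6a encodes Sca-1, a surface antigen long used to enrich mouse blood stem cells, and a Ly6a reporter is known to mark the part of the embryonic arterial wall and its clusters that contains the first stem cells. Other members act elsewhere: GPIHBP1 carries lipoprotein lipase across the capillary wall, LY6H and LYNX1 bind nicotinic acetylcholine receptors in the brain, and Ly6c antigens mark monocytes. All 8 genes lie within 1 Mb of Ly6a on mouse chromosome 15.

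Ly6c1 and Ly6c2 share more transcript sequence than any other pair of the 8. Their listed levels were far apart, but are uncertain where reads of shared sequence were split or moved. Their promoters are shown first, and the part of promoters in the difference was not tested. Each runs 5′ to 3′ on the gene's own strand (RefSeq, GRCm38.p6) and covers 300 bases around the annotated start, most of them before it. The first lies at chr15:75048788-75049087 and the second at chr15:75111922-75112221, both on the minus strand. Capitals mark the bases that differ between the pair or lie opposite a gap in their global alignment.
Ly6c1: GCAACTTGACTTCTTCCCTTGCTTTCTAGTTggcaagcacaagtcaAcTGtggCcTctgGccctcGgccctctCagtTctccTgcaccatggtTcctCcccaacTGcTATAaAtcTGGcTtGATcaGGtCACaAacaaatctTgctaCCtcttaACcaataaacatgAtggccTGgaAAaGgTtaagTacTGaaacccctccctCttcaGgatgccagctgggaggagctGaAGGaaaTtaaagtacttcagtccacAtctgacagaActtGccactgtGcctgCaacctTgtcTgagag
Ly6c2: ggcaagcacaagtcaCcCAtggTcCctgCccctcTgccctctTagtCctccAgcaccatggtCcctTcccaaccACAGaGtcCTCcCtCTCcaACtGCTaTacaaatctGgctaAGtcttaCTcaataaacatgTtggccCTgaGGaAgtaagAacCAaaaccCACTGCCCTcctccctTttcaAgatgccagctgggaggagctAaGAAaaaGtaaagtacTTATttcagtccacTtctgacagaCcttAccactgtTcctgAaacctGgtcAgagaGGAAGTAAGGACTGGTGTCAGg
The windows matched at 208 of 266 alignment columns without a gap, an identity of 78.2%, and 68 further columns held a gap. The lower-case runs are the bases they share, such as the stretch around gatgccagctgggaggagct near the start. Each window held 4 copies of GGAA, the core of ETS factor sites, counted on both strands, and 96.0% of the 32851 RefSeq promoters of that length held at least 1. TGTGGT, a RUNX core, occurred once in the Ly6c2 window and not in that of Ly6c1 (16.8% of all promoters). CANNTG, the E-box, occurred 4 times in the Ly6c1 window and 2 times in the Ly6c2 window (72.3% of promoters). GATA (57.9% of promoters) and a spaced repeat of GAAA that is the interferon response motif (3.44%) were in neither window on either strand. Matches were counted also where they overlap those of another motif, and a match is a description of letters, not a bound site. Of the 8 genes, these 2 had promoters in the table used here.

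Ly6a was higher in the reporter-positive cells of both types, which is a check of the sort, since its regulatory sequence drives the reporter. In HC GFP+ it had 6.83, 7.09 and 3.57 FPKM, against 0.778, 1.47 and 0.0538 FPKM in HC GFP-. In EC GFP+ it had 8.82, 8.42 and 9.05 FPKM, against 1.26, 1.37 and 0.0585 FPKM in EC GFP-. The groups did not overlap in either pair, and both GFP- populations had 1 library near 0. The means were 5.83 ± 1.96 in HC GFP+ against 0.768 ± 0.709 FPKM in HC GFP- (SD, n = 3 each), a ratio of 7.59. In endothelium they were 8.76 ± 0.319 in EC GFP+ against 0.896 ± 0.728 FPKM in EC GFP- (SD, n = 3 each), a ratio of 9.77.

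Tests were run on log2(FPKM + 1), a scale that understates the change of low genes such as Ly6a. There the change of Ly6a was 1.99 ± 0.37 in HC (SE, limma, two-sided, Benjamini-Hochberg adjusted p = 0.0109) and 2.45 ± 0.37 in EC (adjusted p = 0.00152). In HC the call depended on the constant added: with 0.1 in place of 1 the change was 3.25 and the adjusted p 0.0820. The difference between the reporter effects in HC and in EC was -0.46 ± 0.52 (adjusted p = 0.814). Among GFP+ cells, all HC libraries lay under all EC libraries, with a change of -0.56 ± 0.37 that missed the threshold (adjusted p = 0.360). Ordered by mean, the populations ran EC GFP+, HC GFP+, EC GFP- and HC GFP-, and the ranges of the last 2 overlapped. In bulk samples, fewer cells with a transcript and less of it per cell cannot be told apart.

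**Figure D1:**
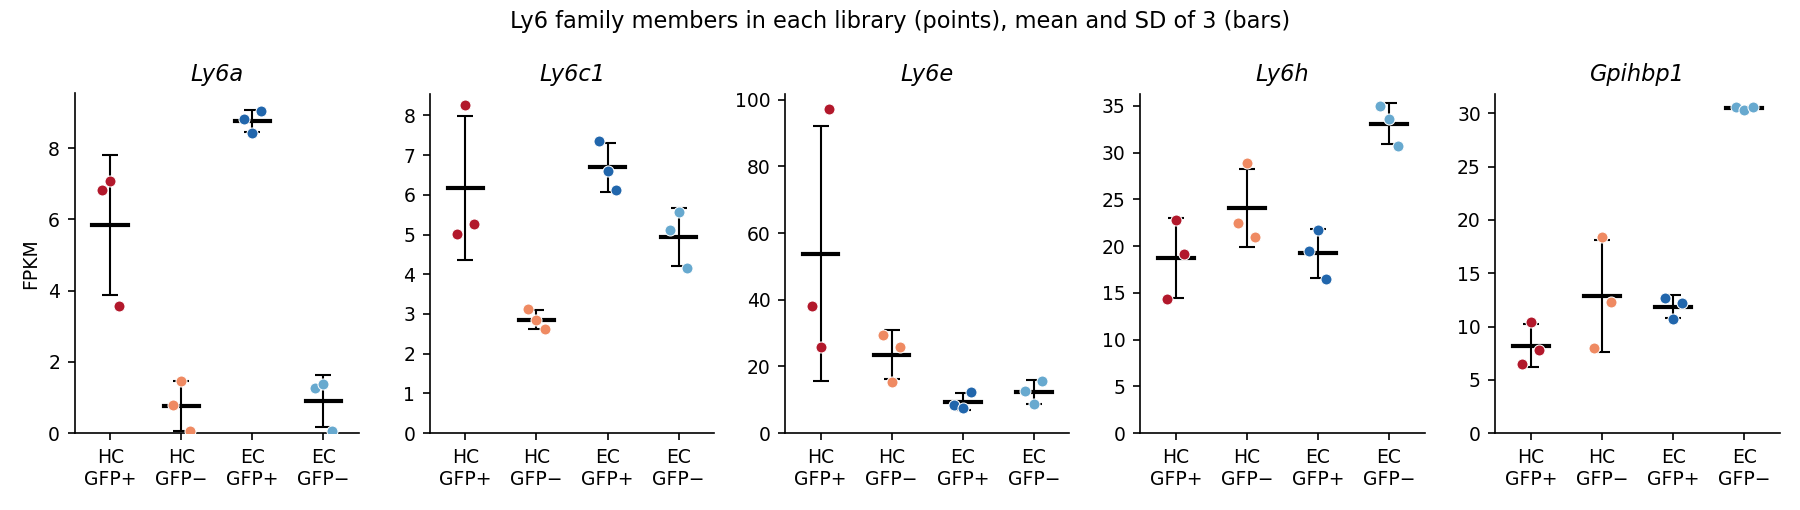
FPKM of the 5 tested genes (vertical axes, each from 0) in HC GFP+, HC GFP-, EC GFP+ and EC GFP- (horizontal axes); points are libraries, thick bars means and thin bars SD of 3. Ly6a is high in both GFP+ populations, Ly6e is high in HC with 1 library at 97.4, and Gpihbp1 sits between 30.3 and 30.6 in EC GFP- and under 19 in the other populations.

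Ly6c1, which encodes an antigen of monocytes and of some endothelium, also had more transcript in HC with the active reporter. It had 5.01, 8.27 and 5.26 FPKM in HC GFP+, against 3.11, 2.84 and 2.62 FPKM in HC GFP-. It had 7.36, 6.59 and 6.11 FPKM in EC GFP+, against 5.10, 5.56 and 4.15 FPKM in EC GFP-. In neither pair did the groups overlap, but the gap was narrow in endothelium. In HC the means were 6.18 ± 1.81 in HC GFP+ against 2.86 ± 0.245 FPKM in HC GFP- (SD, n = 3 each), and the log2 change was 0.87 ± 0.17 (limma adjusted p = 0.0145). Without the second or the third HC GFP- library the adjusted p was 0.05002 or 0.0655. In EC the change of 0.38 ± 0.17 missed the threshold (6.69 ± 0.628 in EC GFP+ against 4.94 ± 0.722 FPKM in EC GFP-, SD, n = 3 each, adjusted p = 0.170). The difference between these reporter effects, 0.49 ± 0.24, did not pass either (adjusted p = 0.471). HC GFP- was the lowest population, under every library of the other 3, and its change against EC GFP- was -0.62 ± 0.17 (adjusted p = 0.0694). That comparison passed without the second HC GFP+ library (adjusted p = 0.0252), which enters only the shared estimate of the spread. HC GFP+ overlapped both endothelial populations.

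Ly6c2, the other monocyte antigen gene, was listed at 0 in 11 of the 12 libraries and at 0.151 FPKM in the first EC GFP+ library. How reads were divided between these copies is not given in the sources used here. Of 817 distinct 50-base windows in Ly6c2 transcripts (GENCODE M21), 31.2% also occur in another gene, nearly all of them in Ly6c1 (30.8%). Of 1764 windows in Ly6c1 transcripts, 32.8% occur elsewhere, most in Ly6c2 (21.5%). Of 1297 windows in Ly6a transcripts, 19.0% occur elsewhere, and 15.03% are shared with Ly6c1. Values of Ly6c1, Ly6c2 and Ly6a are therefore uncertain to the extent that the counting split or moved such reads, whereas Ly6e, Ly6d, Gpihbp1 and Lynx1 shared no window and Ly6h 0.248%.

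Ly6e had the highest mean of the family in HC GFP+ and the widest spread. Its protein is induced by interferon, restricts or aids the entry of several viruses, and serves in mice as a receptor for the placental fusion protein syncytin-A. It had 38.2, 25.8 and 97.4 FPKM in HC GFP+ and 29.4, 15.3 and 25.8 FPKM in HC GFP-. It had 8.53, 7.54 and 12.2 FPKM in EC GFP+ and 12.7, 8.61 and 15.7 FPKM in EC GFP-. The third HC GFP+ library stood far above the others, and every HC GFP+ library exceeded every endothelial one. The second library was the lowest in each of the 4 populations, as it was for the summed smooth muscle and mesenchyme genes (240 in HC GFP+, 394 in HC GFP-, 243 in EC GFP+ and 263 FPKM in EC GFP-), whose part was not tested. For HC GFP+ against EC GFP+ the means were 53.8 ± 38.2 and 9.43 ± 2.47 FPKM (SD, n = 3 each), and the log2 change was 2.20 ± 0.42 (limma adjusted p = 0.00545). Without the third HC GFP+ library the change was 1.66 and still passed (adjusted p = 0.00971). HC GFP- averaged 23.5 ± 7.33 and EC GFP- 12.3 ± 3.55 FPKM (SD, n = 3 each), with overlapping ranges and a change of 0.86 ± 0.42 (adjusted p = 0.293). By reporter, the change was 0.99 ± 0.42 in HC (adjusted p = 0.257) and -0.34 ± 0.42 in EC (adjusted p = 0.641), and ranges overlapped in both. The difference of these effects was 1.33 ± 0.59 (adjusted p = 0.423).

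Within HC, the level of Ly6e ran beside that of macrophage and monocyte genes. Their summed FPKM was 771, 282 and 1584 in the HC GFP+ libraries and 838, 263 and 681 in the HC GFP- libraries, in the order of the Ly6e values above. Within each HC population the libraries lowest and highest in Ly6e were also lowest and highest in these genes. In EC GFP+ the sums were 18.8, 16.1 and 37.2 and ranked as Ly6e did. In EC GFP- they were 13.1, 17.8 and 19.6, and the library lowest in Ly6e did not have the lowest sum. All 11 tested macrophage and monocyte genes passed as higher in HC GFP+ than in EC GFP+ and in HC GFP- than in EC GFP-. Over all tested genes 14.3% and 4.29% passed there. By reporter 0 of the 11 passed in HC or in EC, beside 4.26% and 13.5% of all tested genes. At an unadjusted p under 0.05, 1 of the 11 was higher in GFP+ cells of each type by the same limma test. The part of macrophages in the Ly6e result was not tested.

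Interferon pathway and response genes were counted beside Ly6e, which was not on that list. Of 39 listed genes 37 were found and 35 tested. In HC GFP+ against HC GFP- the median log2 change over the list was 0.71, beside 0.0014 over all tested genes. There 5 rose and 0 fell (14.3%, beside 4.26% of all tested genes). They were Irf9 (17.9 against 10.1 FPKM), a transcription factor of the interferon response, the receptor chain gene Ifngr1 (45.2 against 30.4), Xaf1 (14.7 against 4.48), Ifitm1 (67.9 against 16.8), a restriction factor of viral entry, and Oasl2 (9.89 against 1.92). Without the third HC GFP+ library 1 of these genes, Xaf1, passed and the median was 0.39. In EC GFP+ against EC GFP- 2 rose (Irf9 and Gbp3) and 1 fell (Ifngr2), with a median of 0.31. That was 8.57% of the list, under the 13.5% of all tested genes. With an equal FPKM sum 7 rose and 0 fell there, while over all tested genes 1917 rose and 286 fell. Between HC GFP+ and EC GFP+ 7 rose and 0 fell in HC GFP+ (median 0.56), or 2 without the third HC GFP+ library. The 7 were 20% of the list, beside 14.3% of all tested genes. The 1 gene that rose in HC GFP- against EC GFP- was Psmb8, a subunit of the immunoproteasome (median 0.21). It was 2.86% of the list, beside 4.29% of all tested genes. Across the 12 libraries the mean log2 level of the list correlated with Ly6e at Pearson r = 0.85, with Ly6a at 0.32, with Ly6c1 at 0.14, with Ly6h at -0.67 and with Gpihbp1 at -0.74. Those points share populations and libraries, so the values are descriptions.

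**Figure D2:**
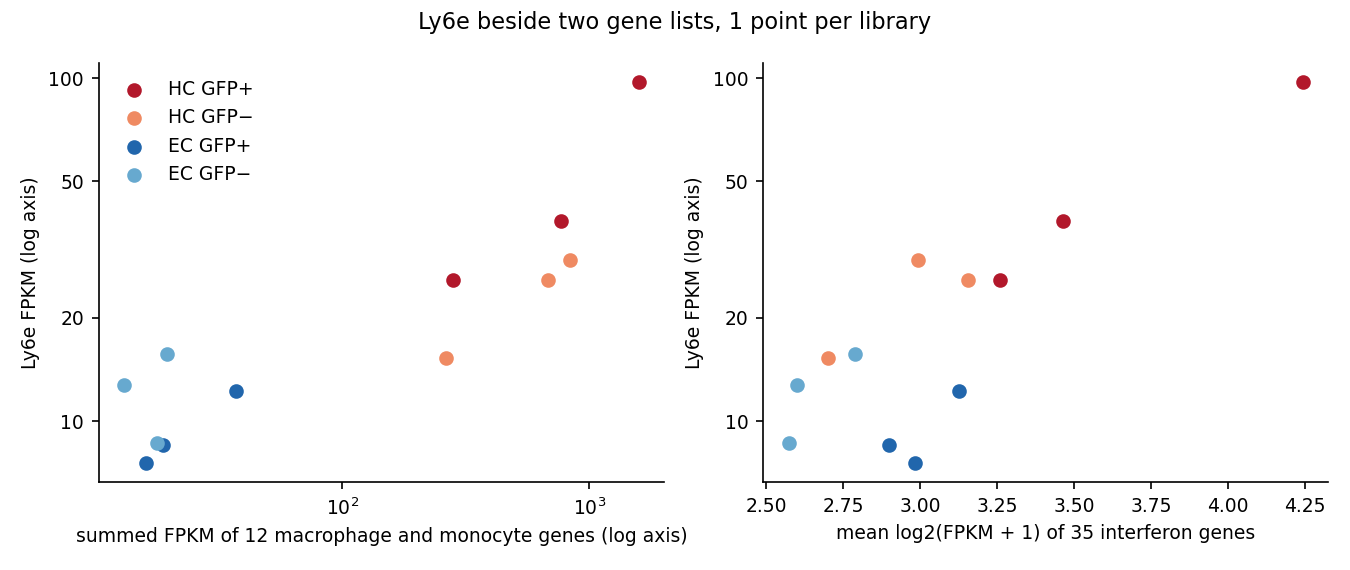
Ly6e FPKM (vertical, log axis) against the summed FPKM of 12 macrophage and monocyte genes (left, log axis) and against the mean log2(FPKM + 1) of 35 interferon genes (right), 1 point per library. HC libraries lie at 263 or more on the left axis and EC libraries at 37.2 or less, and the third HC GFP+ library, at 97.4 FPKM of Ly6e, is highest on both horizontal axes.

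Ly6h, best known from the brain, where its protein limits the surface transport of nicotinic acetylcholine receptors, was present in all 4 populations. It had 14.3, 22.8 and 19.1 FPKM in HC GFP+ and 22.5, 28.8 and 21.0 FPKM in HC GFP-. It had 19.5, 21.7 and 16.5 FPKM in EC GFP+ and 34.99, 33.6 and 30.7 FPKM in EC GFP-. EC GFP- stood above every other library, and the remaining 3 populations overlapped. The mean was 19.2 ± 2.61 in EC GFP+ against 33.1 ± 2.17 FPKM in EC GFP- (SD, n = 3 each), and the log2 change was -0.76 ± 0.17 (limma adjusted p = 0.0126). Without the third EC GFP+ library it was -0.66 (adjusted p = 0.0560). In HC the change by reporter was -0.36 ± 0.17 (18.7 ± 4.24 in HC GFP+ against 24.1 ± 4.16 FPKM in HC GFP-, SD, n = 3 each, adjusted p = 0.305). The HC GFP- against EC GFP- change was -0.45 ± 0.17 with ranges that did not overlap (adjusted p = 0.162), and that of HC GFP+ against EC GFP+ was -0.05 ± 0.17 (adjusted p = 0.883). The effects by reporter differed by 0.40 ± 0.23 (adjusted p = 0.574).

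Of 11 neural and neural crest genes found beside it 6 were tested, and Elavl3, Dcx, Snap25 and Syt1 averaged under 1 FPKM in every population. Stmn2, the gene with the highest level on that list, averaged 69.3, 11.9, 159 and 35.001 FPKM in HC GFP+, HC GFP-, EC GFP+ and EC GFP-, and it rose by reporter in both cell types. The neurofilament genes Nefl (1.63 in EC GFP+ against 3.23 FPKM in EC GFP-) and Nefm (1.43 against 3.04 FPKM) had lower means in EC GFP+, as Ly6h did. In EC by reporter 1 of the 6 rose and 0 fell, where 13.5% of all tested genes passed. Before adjustment 2 were lower (limma, unadjusted p under 0.05), and the median log2 change of the 6 was -0.28. The part of neural cells in the Ly6h result was not tested. Of the 16 nicotinic receptor subunit genes, all found, 1 was tested. It was Chrnb1, the muscle-type beta subunit, with 4.54 ± 0.937 in EC GFP+ against 2.06 ± 0.571 FPKM in EC GFP- (SD, n = 3 each, log2 change 0.86 ± 0.18, adjusted p = 0.0115). It was lower in HC GFP+, at 2.51 FPKM, than in EC GFP+ (change -0.65 ± 0.18, adjusted p = 0.0379), a call lost without the third HC GFP+ library.

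Lynx1, the prototype of the nicotinic receptor modulators, was near 0 throughout. It had 0.107, 0.0778 and 0 FPKM in HC GFP+, against 0.281, 0.0467 and 0.197 FPKM in HC GFP-. It had 0.120, 0.0425 and 0.0635 FPKM in EC GFP+, against 0.245, 0.245 and 0.128 FPKM in EC GFP-. The endothelial ranges did not overlap, but in a fit with no filter the adjusted p was 0.260. Ly6d, an antigen of keratinocytes and of early B lymphoid progenitors, was at 0 in 8 of the 12 libraries and reached at most 0.375 FPKM. Neither Ly6d nor Ly6c2 passed in any comparison of that unfiltered fit.

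Gpihbp1 was lower in reporter-positive endothelium, with a wide gap between the populations. Its protein binds lipoprotein lipase and moves it to the luminal face of capillaries, where triglyceride-rich particles are broken down. It had 6.45, 10.4 and 7.81 FPKM in HC GFP+ and 7.97, 18.4 and 12.3 FPKM in HC GFP-. It had 12.7, 10.7 and 12.2 FPKM in EC GFP+ and 30.6, 30.3 and 30.6 FPKM in EC GFP-. The EC GFP- libraries were nearly equal and lay above all others. The mean was 11.9 ± 1.04 in EC GFP+ against 30.5 ± 0.135 FPKM in EC GFP- (SD, n = 3 each), a ratio of 0.389 and a log2 change of -1.29 ± 0.23 (limma adjusted p = 0.00481). HC GFP- was lower than EC GFP- too, at 12.9 ± 5.25 FPKM (SD, n = 3), with a change of -1.25 ± 0.23 (adjusted p = 0.0157). That call was lost without the first (-0.97, adjusted p = 0.0562) or the third (adjusted p = 0.0622) HC GFP- library or the first EC GFP- library (adjusted p = 0.0591). HC GFP+, at 8.21 ± 1.99 FPKM (SD, n = 3), overlapped HC GFP- (change -0.54 ± 0.23, adjusted p = 0.265). It lay just under EC GFP+ without overlap (-0.50 ± 0.23, adjusted p = 0.191). The difference of the reporter effects was 0.75 ± 0.33 (adjusted p = 0.418).

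Markers of other cells varied within EC GFP- while Gpihbp1 hardly did, but within HC both varied. The summed FPKM of 13 smooth muscle and mesenchyme genes was 857, 263 and 1140 in the EC GFP- libraries. In HC GFP- it was 1168, 394 and 1164, the reverse of the Gpihbp1 ranks. Sums of 11 endothelial genes were 2086, 2883 and 2226 in HC GFP- and 2686, 2969 and 2775 in HC GFP+. Endothelial sums ranked as Gpihbp1 did in both HC populations and in neither EC population. Erythroid sums were higher in GFP- cells of both types, as given above. Over all tested genes 13.5% passed in EC GFP+ against EC GFP-. There 7 of 10 tested erythroid genes fell while 9 of 11 endothelial genes rose. The part of that shift and of these sums in the levels of Gpihbp1 and Ly6h was not tested.

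The gene of GPIHBP1's main partner was highest in other populations. Lpl, which encodes lipoprotein lipase, had 10.8, 6.96 and 15.7 FPKM in HC GFP+ and 10.9, 4.72 and 12.2 FPKM in HC GFP-. It had 1.79, 1.93 and 3.25 FPKM in EC GFP+ and 1.97, 2.49 and 3.35 FPKM in EC GFP-. The enzyme gene was thus higher in every HC library than in any EC library, with log2 changes of 1.83 ± 0.34 for HC GFP+ against EC GFP+ (adjusted p = 0.00481) and 1.44 ± 0.34 for HC GFP- against EC GFP- (adjusted p = 0.0399). In EC GFP-, where Gpihbp1 was highest, Lpl averaged 2.60 FPKM. Lpl peaked in the third HC GFP+ library and was lowest in the second library of each HC population, like the macrophage and monocyte sums. Their part was not tested.

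Of 23 genes of lipoprotein handling 22 were found and 16 tested. By reporter, 1 rose in HC, the fatty acid carrier Fabp4 (68.5 in HC GFP+ against 41.3 FPKM in HC GFP-), and 1 fell in EC, the lipoprotein receptor Scarb1 (49.3 in EC GFP+ against 62.5 FPKM in EC GFP-). The Scarb1 call was lost under each of 3 other scalings. In HC GFP+ against EC GFP+ Lpl and the receptor Lrp1 rose, and Sel1l and the proteoglycan gene Hspg2 fell. The calls of Lrp1, Sel1l and Hspg2 were lost without the third HC GFP+ library. In HC GFP- against EC GFP- Lpl rose and the transcription factor gene Tcf15 fell (49.6 against 67.2 FPKM), the call of Tcf15 being lost with an equal FPKM sum and with quantile normalization. The list's median log2 changes were 0.057, -0.0073, 0.18 and -0.0093 in these 4 comparisons. Of the list 6.25%, 6.25%, 31.25% and 12.5% passed, beside 4.26%, 13.5%, 14.3% and 4.29% of all tested genes.

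**Figure D3:**
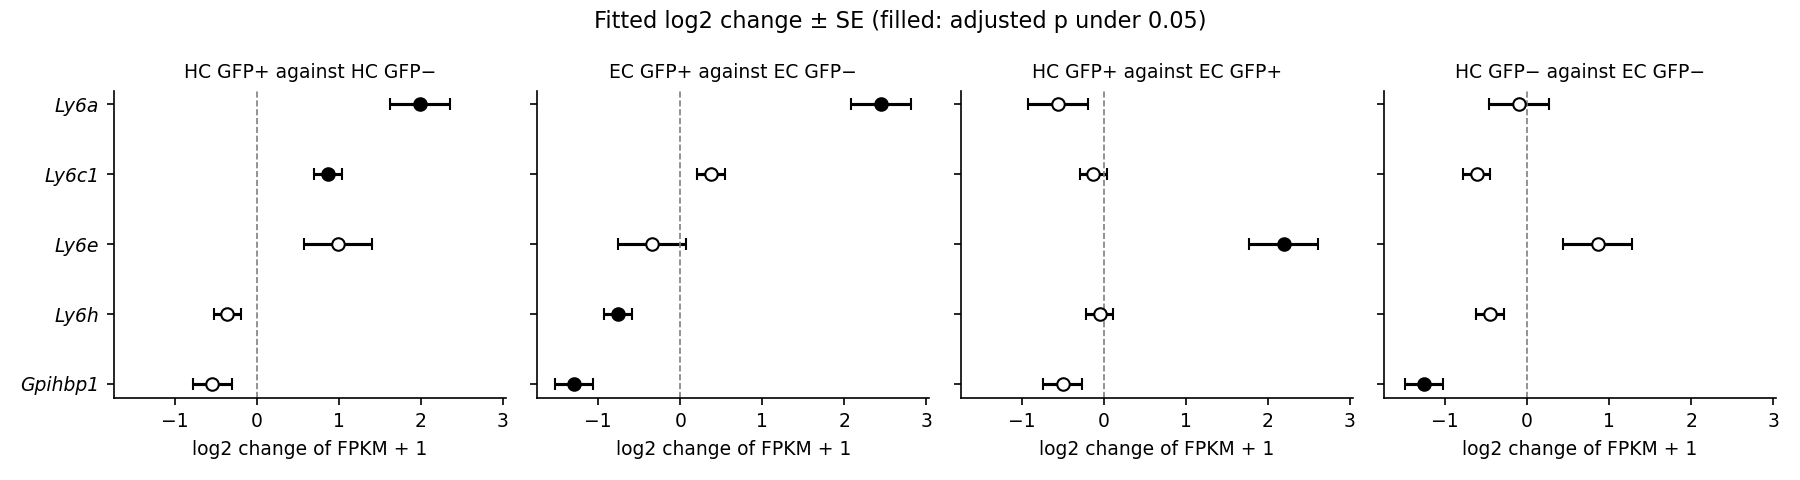
Fitted log2 change of FPKM + 1 (horizontal) of the 5 tested genes (vertical) in 4 comparisons, with SE as bars; filled points have an adjusted p under 0.05. By reporter, Ly6a lies at 1.99 in HC and 2.45 in EC, and Gpihbp1 at -1.29 in EC, while Ly6e at 2.20 is the only filled point among the GFP+ cells of both types.

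Counted together, 2 of the 5 tested genes rose and 0 fell in HC GFP+ against HC GFP- (Ly6a and Ly6c1), where 4.26% of the 13278 tested genes passed. In EC GFP+ against EC GFP- 1 rose (Ly6a) and 2 fell (Ly6h and Gpihbp1), against a background of 13.5%. In HC GFP+ against EC GFP+ 1 rose (Ly6e; background 14.3%), and in HC GFP- against EC GFP- 1 fell (Gpihbp1; background 4.29%). For the difference of the reporter effects 0 passed with limma (background 0.527%), and 2, Ly6e and Gpihbp1, had an unadjusted p under 0.05. The median log2 changes of the 5 genes in these 5 comparisons were 0.87, -0.34, -0.12, -0.45 and 0.49, beside 0.0014, -0.034, 0.052, 0.014 and 0.038 over all tested genes. With 5 genes these shares are coarse, and Ly6a entered through the sort. Among all tested genes of the EC reporter comparison 924 rose and 865 fell. After scaling libraries to an equal FPKM sum 1917 rose and 286 fell, with the median of all genes shifted by 0.17, and after median ratio scaling 1044 rose and 603 fell. The equal sum moved the median by 0.12 in HC GFP- against EC GFP- and by -0.14 for the difference of effects. Each of the calls of the 5 genes held under both and under quantile normalization.

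The 5 genes differed in how much they varied among pools of a population. The pooled within-population SD on the log2 scale was 0.60 for Ly6e, larger than in 95.0% of tested genes, and 0.51 for Ly6a (92.4%). It was 0.32 for Gpihbp1 (80.8%), 0.22 for Ly6h (64.3%) and 0.21 for Ly6c1 (59.98%), beside a median of 0.18 over all tested genes. By mean over the 12 libraries, Ly6e (24.8 FPKM) and Ly6h (23.8) were the highest, followed by Gpihbp1 (15.9), Ly6c1 (5.17) and Ly6a (4.06).

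Among themselves, the genes fell into pairs that moved alike and pairs that did not. Over the 12 libraries Pearson's r of log2(FPKM + 1) was 0.88 for Ly6h with Gpihbp1 and 0.79 for Ly6a with Ly6c1. It was -0.62 for Ly6a with Ly6h, -0.51 for Ly6a with Gpihbp1 and -0.58 for Ly6e with Gpihbp1. Ly6c1 with Gpihbp1 gave -0.087 and Ly6a with Ly6e -0.10. These r values rest on 4 populations of 3 libraries and on shared library effects, and for Ly6a with Ly6c1 also on shared sequence, so they describe the pattern only.

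**Figure D4:**
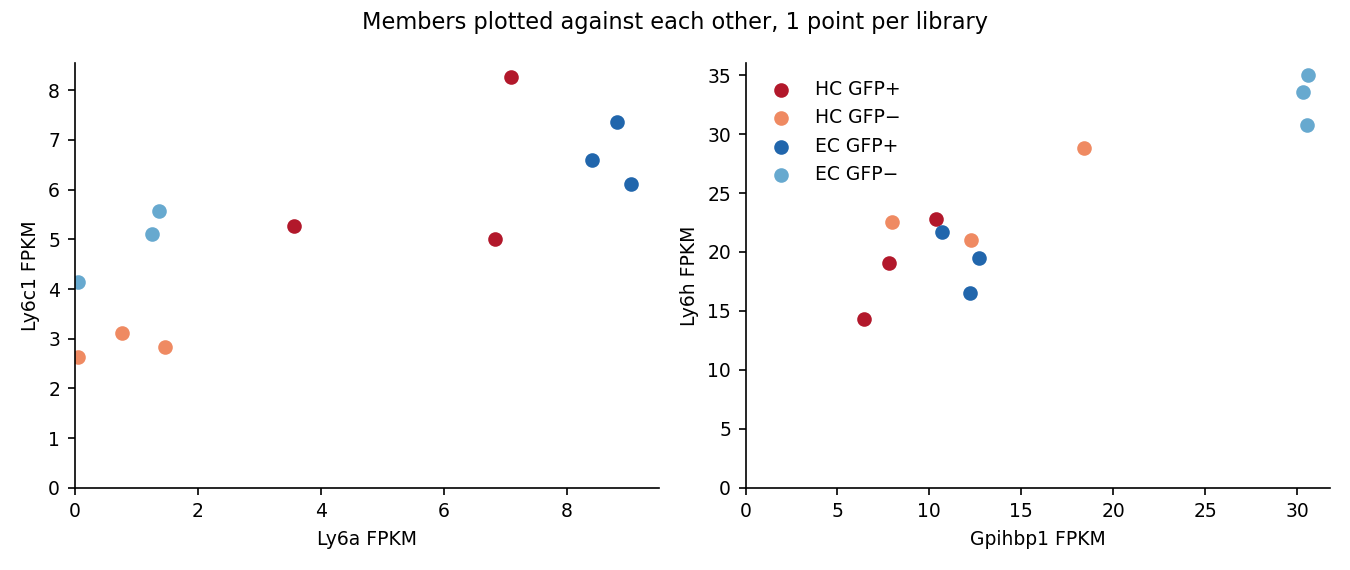
FPKM of Ly6c1 (vertical) against Ly6a (horizontal) on the left, and of Ly6h (vertical) against Gpihbp1 (horizontal) on the right, 1 point per library. On the left both GFP+ populations lie at 3.57 FPKM of Ly6a or more and both GFP- populations at 1.47 or less; on the right the 3 EC GFP- libraries stand apart at 30.3 to 30.6 FPKM of Gpihbp1.

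Genes outside the family were ranked next, leaving out clone, model and pseudogene names. The tested genes with the pattern most like each member, by the same r over 12 libraries, are named. For Ly6a they were Ntng2 (0.98), Gata2 (0.97), a transcription factor of blood stem cells and endothelium, the prostaglandin transporter Slco2a1 (0.97), the collagen gene Col13a1 (0.97) and B3gnt3 (0.97). Gata2 averaged 28.5 in HC GFP+ against 18.6 FPKM in HC GFP-, and 35.4 in EC GFP+ against 18.1 FPKM in EC GFP-. For Ly6c1 they were the protease Bace2 (0.93), Arl4a (0.92), Slc26a10 (0.91), Tm6sf1 (0.90) and the protocadherin Pcdhb3 (0.90).

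The nearest patterns to Ly6e were those of Cebpb (0.99), a transcription factor prominent in myeloid cells, Sord (0.98), the cytokine Il18 (0.97), the prostaglandin synthase Ptgs2 (0.97) and the Fc receptor gene Fcgr4 (0.97). Cebpb averaged 68.4 and 32.7 FPKM in HC GFP+ and HC GFP-, and 10.4 and 12.9 FPKM in EC GFP+ and EC GFP-. For Ly6h they were Galnt12 (0.95), the phosphatase Ptp4a3 (0.94), the splicing factor Srsf7 (0.93), Clec1b (0.93) and Gmpr (0.92). For Gpihbp1 they were Rftn2 (0.97), Lxn (0.97), the potassium channel subunit Kcne3 (0.96), Tmem255a (0.96) and Igfbp3 (0.96), which binds insulin-like growth factors. Igfbp3 averaged 148 in EC GFP+ against 312 FPKM in EC GFP-.

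Along chromosome 15 the genes do not form 1 block of like levels. In RefSeq order Lynx1 and Ly6d come first, then Ly6e, then Ly6a, Ly6c1 and Ly6c2, and last Ly6h and Gpihbp1, with other genes between them. Within 1 Mb of Ly6a, 11 further Ly6/uPAR family genes of the list were placed. This counts only genes in the deposited data whose symbol or synonym was matched in RefSeq. None of these 11 passed the filter, 10 stayed under FPKM 1 in every library, and 4 (Slurp1, 2300005B03Rik, Gml and Ly6g) were at 0 in all. The exception, 9030619P08Rik beside Ly6h, averaged 1.45 ± 0.729 in HC GFP+ against 0.0616 ± 0.107 FPKM in HC GFP- (SD, n = 3 each). Ly6i, directly next to Ly6a, and Ly6g and Ly6f, beyond Ly6c2, were among the genes under FPKM 1.

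Of 18 neighbours outside the family in that window 13 were tested. Over all tested genes 4.26% passed by reporter in HC and 13.5% in EC. By reporter in HC 1 rose and 0 fell, the pore-forming gene Gsdmd, with 12.3, 9.72 and 16.2 FPKM in HC GFP+ against 6.23, 3.65 and 5.26 FPKM in HC GFP-. The ranges did not overlap (log2 change 1.18 ± 0.19, adjusted p = 0.00493). In EC Gsdmd rose as well, at 8.38 ± 0.509 in EC GFP+ against 3.99 ± 0.443 FPKM in EC GFP- (SD, n = 3 each, change 0.91 ± 0.19, adjusted p = 0.00996). Zfp41, next to Gpihbp1, fell in EC GFP+ (12.5 against 17.2 FPKM in EC GFP-, change -0.43 ± 0.09, adjusted p = 0.00981), as did Pycrl and Eef1d. With an equal FPKM sum these 3 lower calls were lost and that of Gsdmd held. With limma, 0 of the 13 passed in HC GFP+ against EC GFP+, in HC GFP- against EC GFP- or for the difference of effects. Over all tested genes 14.3%, 4.29% and 0.527% passed there, and 1, 3 and 0 of the 13 had an unadjusted p under 0.05. More than 1 Mb away, Ptp4a3 fell in EC GFP+, at 42.8 against 85.6 FPKM in EC GFP- (adjusted p = 0.000480), and Dennd3 and Trappc9 rose there (adjusted p = 0.0326 and 0.0393), calls of these 2 that were lost with quantile normalization. Dennd3 also fell in both HC against EC comparisons, and Ptp4a3 fell in HC GFP- against EC GFP-.

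**Figure D5:**
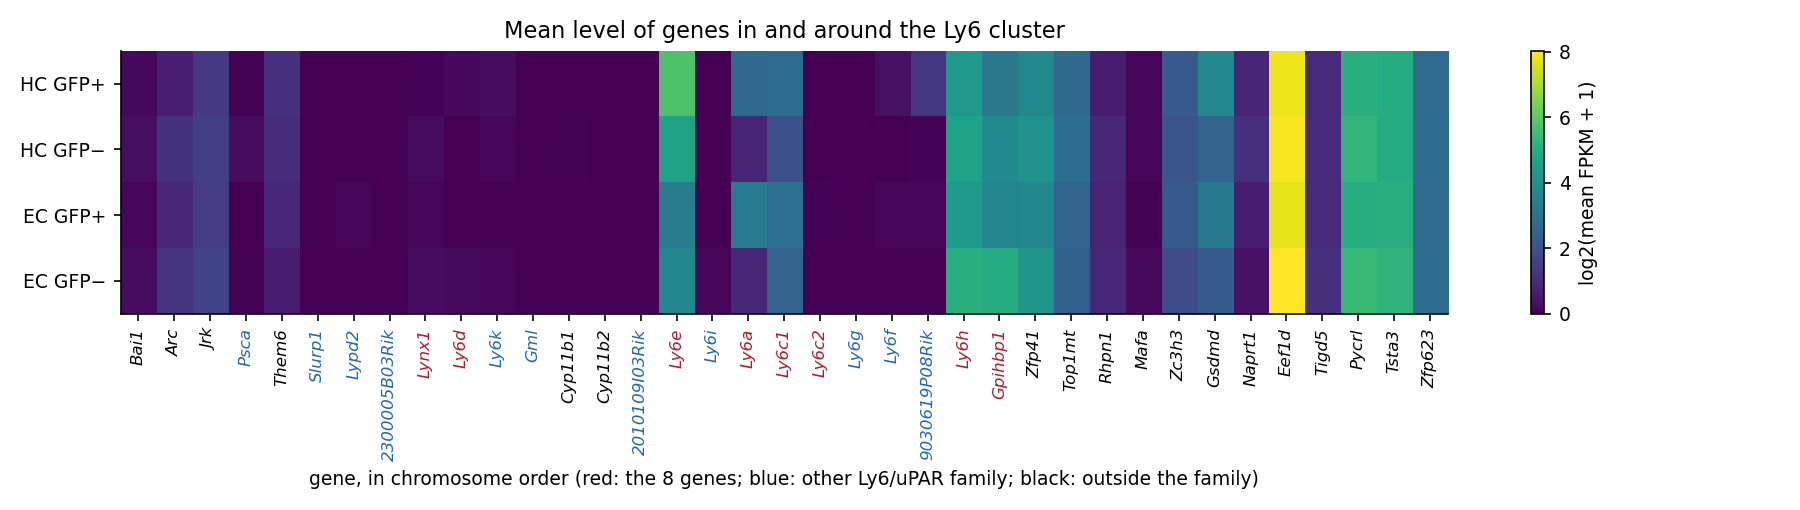
log2 of mean FPKM + 1 (colour) of 37 genes in chromosome order (horizontal) in the 4 populations (rows); red names are the 8 genes, blue names other Ly6/uPAR genes, black names genes outside the family. Ly6e, Ly6c1, Ly6h and Gpihbp1 stand out from the other family genes in all rows, and Ly6a in the GFP+ rows. The highest of those other family genes is 9030619P08Rik, at a mean of 1.45 FPKM in HC GFP+.

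Of 33 found genes of the wider Ly6/uPAR family (40 listed, the 11 nearby ones included) 8 were tested, and 7 of the 33 were at 0 in every library. Cd59a, which protects cells from complement and carries a GPI anchor, had 34.0 ± 4.24 in HC GFP+ against 23.6 ± 1.58 FPKM in HC GFP- (SD, n = 3 each, log2 change 0.50 ± 0.12, adjusted p = 0.0371). That call was lost with quantile normalization and without the third HC GFP+ library. In EC it had 37.0 ± 0.976 in EC GFP+ against 22.2 ± 3.55 FPKM in EC GFP- (SD, n = 3 each, change 0.72 ± 0.12, adjusted p = 0.00279). Plaur, the urokinase receptor, had 20.7 ± 2.04 in EC GFP+ against 9.08 ± 1.45 FPKM in EC GFP- (SD, n = 3 each, change 1.11 ± 0.15, adjusted p = 0.000832). With limma, 0 of the 8 fell by reporter, also at an unadjusted p under 0.05. In HC GFP+ against EC GFP+, in HC GFP- against EC GFP- and for the difference of effects 0 passed. Over all tested genes 14.3%, 4.29% and 0.527% passed there, and 1, 0 and 1 of the 8 had an unadjusted p under 0.05. Without the third HC GFP+ library, Ly6g6d and Plaur passed as lower in HC GFP+ than in EC GFP+. The median log2 change of the 8 was 0.26 in HC and 0.66 in EC by reporter. Of the 8, 12.5% passed in HC and 25% in EC, beside 4.26% and 13.5% of all tested genes.

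Genes that build and attach GPI anchors were counted as a list of their own. Of 27 tested genes (29 found of 30), 0 passed by reporter in HC with limma, beside 4.26% of all tested genes. At an unadjusted p under 0.05 of that test, 6 were higher and 1 lower. In EC GFP+ against EC GFP- 2 rose (7.41%, under the 13.5% of all tested genes). They were Pigt, a subunit of the transamidase that attaches the anchor (71.6 against 46.3 FPKM), and Dpm2 (43.8 against 33.7 FPKM). With an equal FPKM sum 7 rose, while over all tested genes 1917 rose and 286 fell. Dpm1, which makes a mannose donor, fell in HC GFP+ against EC GFP+ (25.5 against 37.3 FPKM), and Pigp fell in HC GFP- against EC GFP- (24.4 against 31.9 FPKM). Each of these 2 calls was 3.70% of the list, beside 14.3% and 4.29% of all tested genes, and was lost with an equal FPKM sum.

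Other GPI-anchored or reporter-linked surface antigens of blood stem cells and endothelium were compared in the same way. Part of this list was chosen for a known link to such reporters, so its counts by reporter are a description and no independent support. It was also drawn from known antigens of blood stem cells and endothelium, so its counts between HC and EC are likewise a description. Of 18 tested genes (20 listed and found), 5 rose and 2 fell in HC GFP+ against HC GFP- (38.9%, beside 4.26% of all tested genes). Procr, the endothelial protein C receptor, had 120.6 ± 16.8 in HC GFP+ against 36.6 ± 5.18 FPKM in HC GFP- (SD, n = 3 each, log2 change 1.69 ± 0.11, adjusted p = 1.89e-05). Vwf, Cd27, Emcn and Kit rose too, with Cd27 at 7.52 in HC GFP+ against 0.771 FPKM in HC GFP-. The GPI-anchored Thy1 (1.70 in HC GFP+ against 3.68 FPKM in HC GFP-) and Prnp (23.9 against 31.6 FPKM) fell, calls that were lost without the third HC GFP+ library.

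In EC 7 of these 18 rose and 2 fell by reporter (50%, beside 13.5% of all tested genes). Procr had 154 ± 10.6 in EC GFP+ against 37.8 ± 0.843 FPKM in EC GFP- (SD, n = 3 each, change 1.998 ± 0.11, adjusted p = 1.87e-06), and Vwf, Emcn and Cd34 rose with it. Thy1 (0.6898 against 2.94 FPKM) and Prnp (31.6 against 46.3 FPKM) fell there as well, the call of Prnp being lost with an equal FPKM sum. In HC GFP+ against EC GFP+ 5 rose and 8 fell, led by Vwf (174 against 411 FPKM). That was 72.2% of the list, beside 14.3% of all tested genes. Kit, which encodes the antigen that divided HC from EC in the sort, was among those that rose (35.5 against 14.0 FPKM). In HC GFP- against EC GFP- 2 rose and 3 fell (27.8%, beside 4.29% of all tested genes). With an equal FPKM sum 2 rose and 0 fell in HC GFP- against EC GFP-, and with quantile normalization Cd24a and Cd34 lost their calls. No gene of this list passed for the difference of effects with limma, where 3 were higher and 4 lower at an unadjusted p under 0.05. Of all tested genes 0.527% passed there.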

How the data were processed

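RNA of 12 libraries (4 sorted populations, 3 pools each) was read as 1 table of FPKM values per gene, deposited by the authors. Libraries were made from poly(A) RNA with the NEBNext Ultra kit, per the labels' protocols. Cufflinks, featureCounts, edgeR, DESeq and the mouse build mm9 are named, without roles or versions, per the submitters' processing notes. The aligner, the annotation and the strand setting remain not given in the sources used here. FPKM are estimates, not counts, so no count test was used, and overlapping or antisense reads cannot be separated.

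Genes that reached FPKM 1 in 3 or more libraries (13278 of 33531) were fitted with limma 3.58.1 (R 4.3.3) on the log2(FPKM + 1) scale (4 group means, 8 residual degrees of freedom, empirical Bayes with a trend, two-sided). P-values were adjusted by Benjamini-Hochberg over all tested genes of a comparison, with a threshold of 0.05, in 5 comparisons. The fit was tested on simulated data. Alternatives were a pseudocount of 0.1, no filter, a mean of 5 FPKM or more, 3 scalings, the libraries of a comparison alone, no trend, a replicate block and leaving out each library. Counts over the gene lists without the third HC GFP+ library and under the scalings were added after seeing the data.

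The 8 genes and the lists were chosen with earlier results of these data known. All 8 are named. The plan was to name, from each list, up to 4 genes past the threshold by adjusted p, plus the first in the other direction. Some comparisons name fewer or none of these, and their other called genes are only counted. The 5 genes with the highest correlation were named for each tested member, leaving out names of clones, gene models, pseudogenes and small or antisense RNAs. The listed genes given per library, and the few others named in counts of 5 or fewer, were chosen after their values were seen. Gene order and promoters came from RefSeq (GRCm38.p6) and transcript windows from GENCODE M21, which is not the build of the files. The promoters were aligned with Biopython 1.88. One listed gene that passed is not reported here.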

Additional observations from a re-analysis of the deposited data

How the results depend on the processing

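The count of the 5 tested genes past the threshold in HC GFP+ against HC GFP- was 2, and it was 1 with a pseudocount of 0.1, 1 with the stricter filter (under which Ly6a, with a mean of 4.06 FPKM, was not tested) and 1 with the libraries of the comparison alone. Leaving out each library in turn gave 1 to 2. In HC GFP- against EC GFP- it was 1, and 0 with the libraries of the comparison alone, and leaving out each library gave 0 to 2. With 1 library left out, the uncalled log2 change of Ly6h in HC GFP+ against EC GFP+ lay between -0.20 and 0.12, and that of Ly6a in HC GFP- against EC GFP- between -0.47 and 0.23, so both took either sign. With the libraries of the comparison alone, Ly6c1 in HC (adjusted p = 0.0697) and Gpihbp1 in HC GFP- against EC GFP- (0.0619) missed the threshold. The cause was not tested. Over all alternatives 500 values of single genes kept their direction and side of the threshold, 9 kept the direction but lost the call, 1 gained it and 5 changed sign.

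Same-numbered pools were not treated as pairs: the correlation of their deviations ran between -0.084 and 0.27 over 18 pairs, 4 were over 0.1, and 6 of 12 libraries correlated best with one of their own number. For single genes they could still deviate together, as Ly6e was lowest in the second pool of each population. With the replicate block the 5 counts were 2, 3, 1, 1 and 0, as without it, and the adjusted p of Ly6e by reporter in HC was 0.0627. No depth can be read from these values, and 3 pools per population limit what could be called, most of all for Ly6a and Ly6e with their wide spread.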
